A study of Oryzias latipes with 8 samples.

Results

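The comparison described here set the GFP-negative cells of the wdr12:GFP medaka line against the GFP-positive cells of the ebf3:GFP line, both sorted from the optic tectum of fish aged 1 month. It used 5 of the 8 RNA-seq libraries of the series, chosen by their labels alone: 2 wdr12 GFP-negative libraries and 3 ebf3 GFP-positive libraries. The remaining 3 libraries, the wdr12 GFP-positive neuroepithelial sort, entered the estimate of the spread between replicates, and their values are given only as context. All cells came from pooled tecta that were dissociated in a commercial cell dissociation solution, pushed through a strainer and sorted by flow cytometry, and each library was built from a few nanograms of total RNA. In the wdr12:GFP line the promoter of wdr12, a ribosome biogenesis gene, drives GFP, so the wdr12 GFP-negative gate holds the tectal cells that do not show that promoter's activity. The submitters describe those cells as a mixture of amplifying progenitors, neurons and glia. In the ebf3:GFP line the promoter of ebf3 drives GFP in cells that have left the cell cycle and in neurons. Line and gate therefore changed together, and their effects cannot be told apart here. The labels do not say whether replicates came from separate dissections. The p-values thus measure only the spread between replicates over all 8 libraries, which may be technical.

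The optic tectum is the visual centre of the fish midbrain, and it keeps growing after hatching from neuroepithelial cells at its margin. Cells that leave this zone switch on proneural basic helix-loop-helix factors, then early neuronal factors such as the EBF (COE), SOX11 and POU families, before they acquire synapses and a transmitter. Radial glia, oligodendrocytes, microglia, vessels and meninges make up the remaining tissue, and blood cells stay in dissected brain unless it is perfused.

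The wdr12 GFP-negative libraries held 3497590 and 5798755 counts in genes, and the ebf3 GFP-positive libraries held between 5248124 and 7708238. Across genes, Pearson's r of log2-transformed CPM, the counts after TMM scaling for depth, was 0.952 between the wdr12 GFP-negative libraries and 0.925 to 0.962 among the ebf3 GFP-positive libraries, against 0.885 to 0.904 between the groups. Library 2 of the wdr12 GFP-negative group and library 3 of the ebf3 GFP-positive group each stood apart in some gene groups, as given below. Of 15640 genes tested with edgeR, 494 (3.16%) rose and 307 (1.96%) fell in wdr12 GFP-negative cells at an adjusted p under 0.05. The changes were larger upward than downward: 362 of the genes that rose and 69 of those that fell did so by over 4-fold. The median log2 fold change was 0.0148 over all genes tested. Leaving out either wdr12 GFP-negative library leaves a single library in that group, and fewer calls can follow from that alone. Counts of calls from those fits, given below, thus do not show dependence on a given library. The median log2 fold change over all genes was -0.0741 without library 1 and 0.0218 without library 2. In fits without ebf3 GFP-positive library 1, 213 genes rose and 84 fell. Without library 2 the counts were 274 and 140, and without library 3 they were 631 and 314. Under DESeq2, 794 rose and 706 fell, and with only the 5 compared libraries in the edgeR fit 852 rose and 753 fell. Of 99 called genes named by a fixed rule, 34 kept their call under every one of up to 11 alternative settings in which they were tested, and 0 changed sign.

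Gene symbols came only from the authors' sheets of changed genes, 1606 of which were listed for this same comparison, so the gene lists below are made of genes that had already passed a test on these libraries. A list is therefore read against the genes with a symbol, of which 9.27% rose and 6.18% fell among 4658 tested, with a median log2 fold change of 0.19. Among these 4658 genes, 2091 had an unadjusted p under 0.05 in either direction, against 2963 of the 15640 genes tested. Counts at an unadjusted p given below are to be read against this share. No count below is independent evidence of a direction. Among genes with a symbol, 37.2% had both wdr12 GFP-negative libraries above all ebf3 GFP-positive libraries and 29.1% had both below, against 21.9% and 19.5% of all genes tested. In bulk RNA, fewer cells of a type and less RNA per cell cannot be told apart. Summed shares of counts given below are not scaled. Erythrocyte and thrombocyte genes alone took 4.51% and 16.3% of counts in the wdr12 GFP-negative libraries, against 0.118% to 0.19% in the ebf3 GFP-positive libraries. This lowers the share of every other list in the wdr12 GFP-negative libraries, most in library 2.

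**Figure D1:**
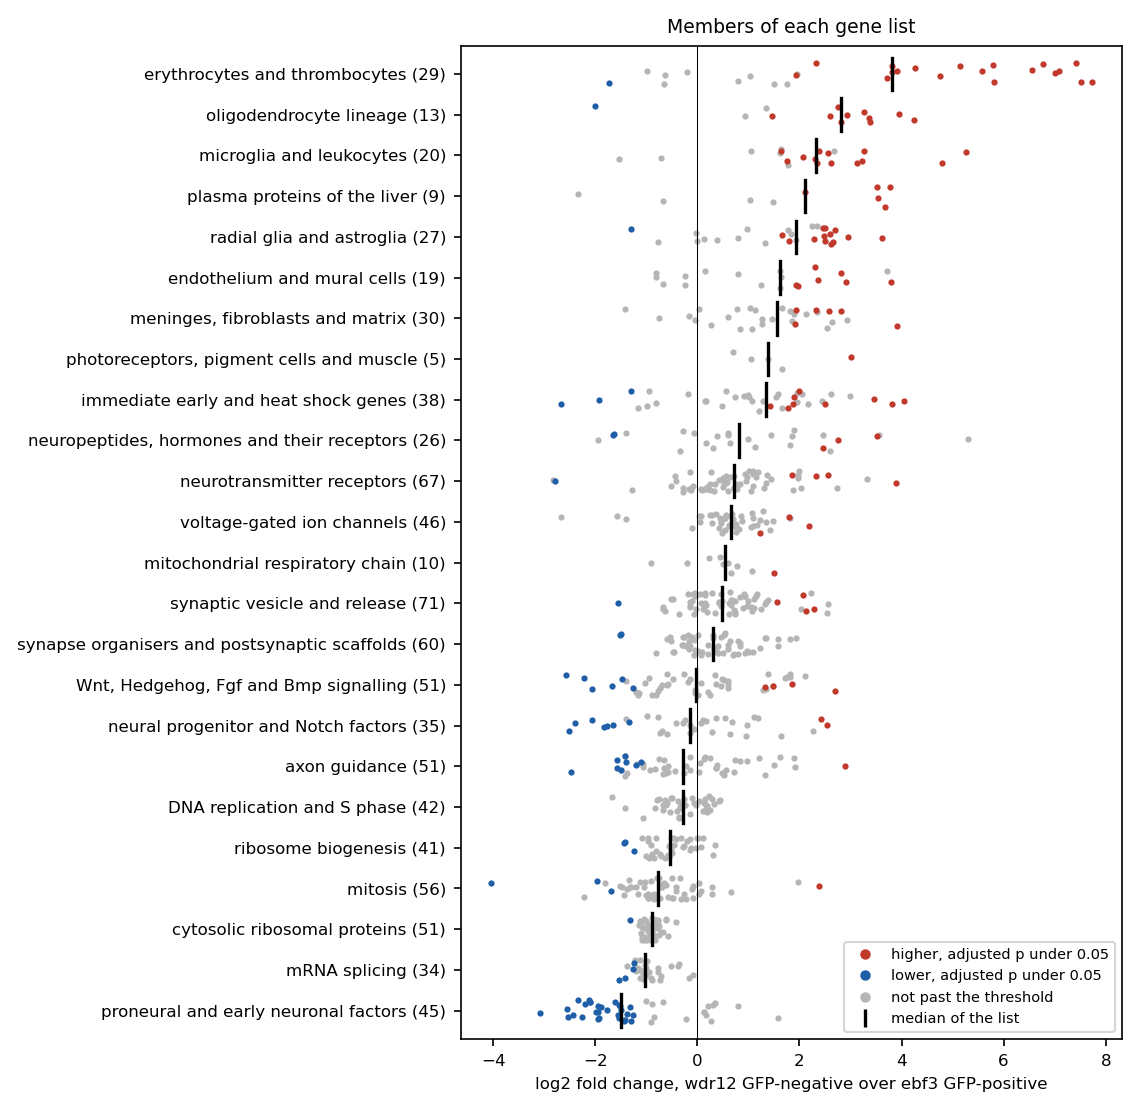
Log2 fold change (horizontal axis, wdr12 GFP-negative over ebf3 GFP-positive) of every tested member of the 24 gene lists, with the number of members in brackets, red and blue points for genes past an adjusted p of 0.05 and a black bar at each list's median. The medians run from -1.49 for proneural and early neuronal factors to 3.81 for erythrocyte and thrombocyte genes.

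The gene that drives GFP in the ebf3 line differed between the sorts, and the one that drives it in the wdr12 line did not pass the test. Expression of ebf3 stood at 656 and 662 CPM in wdr12 GFP-negative cells, against 2720, 2590 and 2260 CPM in ebf3 GFP-positive cells (a log2 change of -1.94 ± 0.37 (SE), edgeR adjusted p = 0.0071). The groups did not overlap, but ebf3 was still plainly measured in the wdr12 GFP-negative libraries. The wdr12 gene gave 25.7 and 21.5 CPM in wdr12 GFP-negative cells, against 24.8, 26.6 and 18.5 CPM in ebf3 GFP-positive cells, and the groups overlapped (0.01 ± 0.36, edgeR adjusted p = 0.993). In the wdr12 GFP-positive libraries it ranged between 50.6 and 99.3 CPM.

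Both sorts carried neuronal markers. The RNA-binding protein gene elavl3, an early neuronal marker, fell to 1140 and 1280 CPM in wdr12 GFP-negative cells, against 3360, 3370 and 2350 CPM in ebf3 GFP-positive cells (-1.32 ± 0.35, edgeR adjusted p = 0.0413). The synaptic fusion gene snap25a stood at 679 and 711 CPM in wdr12 GFP-negative cells and at 371, 335 and 293 CPM in ebf3 GFP-positive cells, without overlap, and did not pass the test (1.06 ± 0.48, edgeR adjusted p = 0.243). The microtubule regulator stmn2a, at 169 and 213 CPM in wdr12 GFP-negative cells against 165, 188 and 144 CPM in ebf3 GFP-positive cells, and the calcium sensor syt1a, at 45.3 and 70.8 CPM against 34.5, 28.9 and 28.0 CPM, did not pass either. The more abundant copy STMN2 (2 of 2) was lower, at 544 and 671 CPM in wdr12 GFP-negative cells against 908, 1070 and 931 CPM in ebf3 GFP-positive cells, and also did not pass (-0.68 ± 0.35, edgeR adjusted p = 0.331). In wdr12 GFP-positive libraries elavl3 gave 2270, 1220 and 1590 CPM, so its level alone does not show that a sort holds neurons. The genes snap25a, stmn2a, syt1a and STMN2 (2 of 2) were lower there than in every compared library. Markers of photoreceptors and muscle listed for this check, among them rho and ckm, carried no symbol in the sheets and were not analysed here.

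Proneural and early neuronal transcription factors were the list that fell most. Of 45 members tested, 29 fell in wdr12 GFP-negative cells (64.4%, against 6.18% of genes with a symbol). The other 16 did not pass and none rose by edgeR. At an unadjusted p under 0.05, 33 members were lower and 2 higher, and DESeq2 called 31 lower and 0 higher. The members' median log2 fold change was -1.49, against 0.19 for all genes with a symbol. Summed, the list took 0.89% and 0.799% of counts in wdr12 GFP-negative libraries, against 2.24%, 2.01% and 2.15% in ebf3 GFP-positive libraries, with no overlap. Only 5 members fell without wdr12 GFP-negative library 1 and 10 without library 2, while 18 fell without ebf3 GFP-positive library 1, 19 without library 2 and 27 without library 3.

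The other EBF genes fell with ebf3. The gene listed as coe2, a second EBF factor, gave 12.2 and 9.1 CPM in wdr12 GFP-negative cells, against 76.3, 54.2 and 56.8 CPM in ebf3 GFP-positive cells (-2.55 ± 0.37, edgeR adjusted p = 0.00156). EBF1 (2 of 2) gave 29.6 and 52.7 CPM in wdr12 GFP-negative cells and 196, 203 and 229 CPM in ebf3 GFP-positive cells (-2.34 ± 0.37, edgeR adjusted p = 0.00291). The lower copy ebf1a gave 16.3 and 12.0 CPM in wdr12 GFP-negative cells, against 35.0, 32.1 and 42.4 CPM in ebf3 GFP-positive cells (-1.37 ± 0.37, edgeR adjusted p = 0.0471). These EBF genes were thus lower in both wdr12 GFP-negative libraries than in any ebf3 GFP-positive library. The same held for ebf3, but its promoter drives the GFP that defined the sort, so it adds no separate evidence. Names of the form "1 of 2" mark copies of one gene in the fish genome, between which reads may be split, so the level of each copy is uncertain.

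NEUROD genes, which drive neuronal differentiation downstream of the first proneural factors, were lower, and NEUROD2 (1 of 2) had the lowest log2 fold change of the 45 listed factors. This copy stood at 66.6 and 104 CPM in wdr12 GFP-negative cells, against 690, 583 and 904 CPM in ebf3 GFP-positive cells (-3.09 ± 0.41, edgeR adjusted p = 0.000852). The copy neurod2 gave 32.9 and 44.0 CPM in wdr12 GFP-negative cells and 171, 135 and 194 CPM in ebf3 GFP-positive cells (-2.11 ± 0.32, edgeR adjusted p = 0.00209). Both neurod4 (-2.20 ± 0.39) and neurod6b (-2.43 ± 0.40) fell as well, while neurod (-1.31) did not pass (edgeR adjusted p = 0.0908). For neurod4 the highest level lay in neither group, since the wdr12 GFP-positive libraries averaged 117 CPM, against 12.2 and 6.53 CPM in wdr12 GFP-negative cells.

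Several POU-domain and homeobox factors, picked with their values in view, fell as well. The sensory neuron factor pou4f2 gave 441 and 522 CPM in wdr12 GFP-negative cells, against 2280, 2360 and 2290 CPM in ebf3 GFP-positive cells (-2.26 ± 0.35, edgeR adjusted p = 0.00237). The spread among its 3 ebf3 GFP-positive libraries was small. Its relative pou4f1 fell by 1.88 ± 0.35, and pou3f1, pou3f2b and pou3f3b fell by 1.98, 1.92 and 1.27 on the log2 scale, while POU3F4 (-0.74) and pou2f1b (-1.08) did not pass. SOX genes were mixed, since SOX4, SOX6B and SOX11 fell and SOX8 rose. SOX11, a factor of newly born neurons, stood at 115 and 133 CPM in wdr12 GFP-negative cells, against 428, 441 and 411 CPM in ebf3 GFP-positive cells (-1.78 ± 0.31, edgeR adjusted p = 0.00427). The LIM-homeobox gene lhx9 gave 116 and 148 CPM in wdr12 GFP-negative cells and 626, 570 and 517 CPM in ebf3 GFP-positive cells (-2.11 ± 0.34, edgeR adjusted p = 0.00299). The bar-type homeobox gene barhl1b gave 22.2 and 40.5 CPM in wdr12 GFP-negative cells and 186, 142 and 217 CPM in ebf3 GFP-positive cells (-2.53 ± 0.36, edgeR adjusted p = 0.00156).

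**Figure D2:**
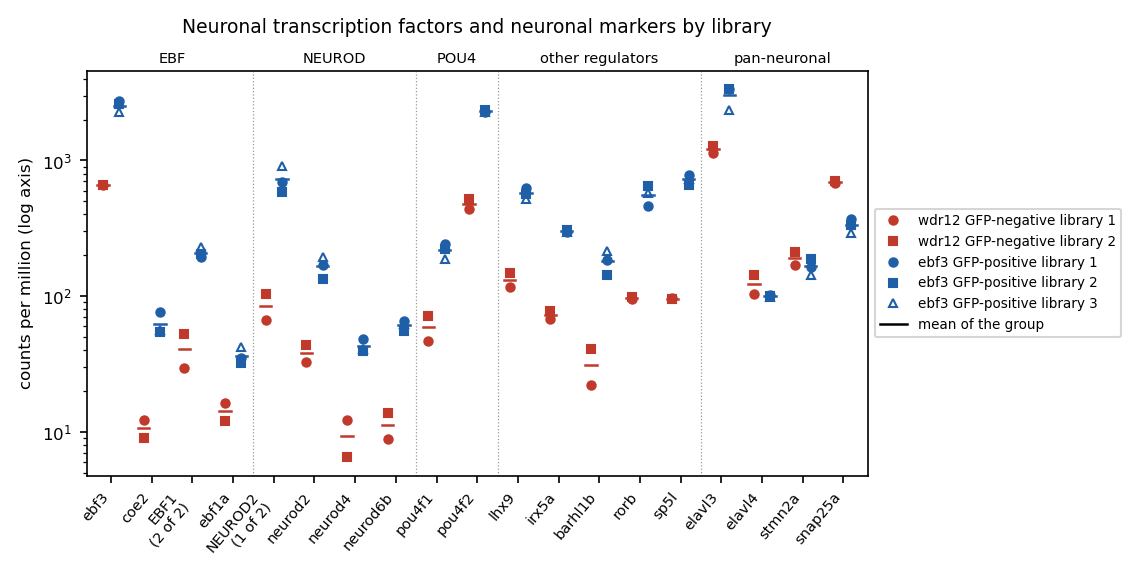
CPM (vertical axis, log scale) of 19 neuronal genes in each wdr12 GFP-negative library (red, left of each pair) and each ebf3 GFP-positive library (blue), with a bar at each group's mean. The transcription factors, picked from those that fell, lie lower in both wdr12 GFP-negative libraries, while elavl4 and stmn2a lie close together in the groups.

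Not every member of the list moved. The markers stmn4, gap43 and elavl4, which mark growing axons and maturing neurons, had log2 fold changes of 0.34, 0.17 and 0.30 and did not pass. The splicing regulator nova1 had 0.12 and elavl2 had 0.12. Midbrain GABA-lineage factors were split: tal2 fell to 77.7 and 104 CPM in wdr12 GFP-negative cells, against 368, 249 and 162 CPM in ebf3 GFP-positive cells (-1.52 ± 0.38, edgeR adjusted p = 0.0292), whereas gata3 had 0.26 ± 0.34 and tal1 (2 of 2), which is also a blood factor, had 0.79 ± 0.33, neither past the test.

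Among genes with a mean normalised count of at least 100, the largest falls outside this list included several transcription factor genes. The Sp-family zinc finger sp5l gave 96.6 and 94.6 CPM in wdr12 GFP-negative cells, against 780, 663 and 730 CPM in ebf3 GFP-positive cells (-2.92 ± 0.45, edgeR adjusted p = 0.00237). The zinc finger casz1 (1 of 2) gave 22.6 and 22.7 CPM in wdr12 GFP-negative cells and 162, 122 and 184 CPM in ebf3 GFP-positive cells (-2.78 ± 0.34, edgeR adjusted p = 0.000589). The nuclear receptor rorb gave 94.6 and 98.1 CPM in wdr12 GFP-negative cells and 458, 647 and 573 CPM in ebf3 GFP-positive cells (-2.54 ± 0.33, edgeR adjusted p = 0.000773). These 3 genes, with NEUROD2 (1 of 2), barhl1b, coe2, lhx2b and TCF7L1, were the 8 named genes that fell under all 11 of these settings. The homeobox gene gsh-1 gave 12.2 and 26.6 CPM in wdr12 GFP-negative cells, against 182, 141 and 96.4 CPM in ebf3 GFP-positive cells (-2.84 ± 0.47, edgeR adjusted p = 0.00312), and was higher still in wdr12 GFP-positive cells, at a mean of 390 CPM. The Iroquois gene irx6a gave 23.9 and 32.3 CPM in wdr12 GFP-negative cells, against 174, 217 and 158 CPM in ebf3 GFP-positive cells (-2.70 ± 0.48, edgeR adjusted p = 0.00484). The Ets factor etv1 (-2.57 ± 0.42), the cannabinoid receptor gene CNR1 (2 of 2) (-2.80 ± 0.47) and the zipper protein gene lzts1 (-2.50 ± 0.41) completed the group with VWA5A (1 of 3), DDIT4 (1 of 2) and sema4e, at -2.87, -2.67 and -2.48.

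Neural progenitor and Notch pathway genes did not move as 1 group. Of 35 members, 2 rose (5.71%) and 7 fell (20%) in wdr12 GFP-negative cells, against 9.27% and 6.18% of genes with a symbol. The median log2 fold change was -0.14. The HMG-box gene SOX8 rose to 28.9 and 42.6 CPM in wdr12 GFP-negative cells, against 3.45, 4.68 and 12.0 CPM in ebf3 GFP-positive cells (2.43 ± 0.47, edgeR adjusted p = 0.0071). The zinc finger ZIC1, at 43.7 and 79.3 CPM in wdr12 GFP-negative cells against 3.45, 11.5 and 17.1 CPM in ebf3 GFP-positive cells, rose by 2.53 ± 0.52 (edgeR adjusted p = 0.0108). The homeobox gene lhx2b fell to 24.6 and 29.0 CPM in wdr12 GFP-negative cells, against 169, 138 and 155 CPM in ebf3 GFP-positive cells (-2.52 ± 0.34, edgeR adjusted p = 0.00107). The helix-loop-helix inhibitor id2a gave 213 and 309 CPM in wdr12 GFP-negative cells and 1140, 1240 and 917 CPM in ebf3 GFP-positive cells (-2.07 ± 0.39, edgeR adjusted p = 0.00648). Its relative id1, a gene of progenitors, gave 168 and 245 CPM in wdr12 GFP-negative cells against 211, 214 and 327 CPM in ebf3 GFP-positive cells and did not pass, beside 2520 to 3880 CPM in wdr12 GFP-positive cells. The Notch ligand genes dlb and DLL4 (1 of 2) and the receptor gene notch1a were among the members that fell. With wdr12 GFP-negative library 1 left out 2 members rose and 1 fell, with library 2 left out none rose and 1 fell, and with ebf3 GFP-positive library 1 left out 2 rose and 4 fell.

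Genes of the cell cycle were not higher in the wdr12 GFP-negative gate, which the submitters describe as containing amplifying progenitors. Of 42 DNA replication and S phase genes, none passed by edgeR in either direction. At an unadjusted p under 0.05, 0 were higher and 5 lower, and DESeq2 called 0 higher and 1 lower. The list took 0.132% and 0.123% of counts in wdr12 GFP-negative libraries and 0.128%, 0.128% and 0.177% in ebf3 GFP-positive libraries, so the groups overlapped. In wdr12 GFP-positive libraries it took 0.576% to 1.12%. The replication clamp gene pcna gave 167 and 249 CPM in wdr12 GFP-negative cells, against 209, 244 and 348 CPM in ebf3 GFP-positive cells and 1990 to 3840 CPM in wdr12 GFP-positive cells. The helicase subunit gene mcm2, at 32.2 and 44.1 CPM in wdr12 GFP-negative cells and 28.0, 26.5 and 61.8 CPM in ebf3 GFP-positive cells, had a log2 fold change of -0.02 ± 0.43.

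Mitotic genes leaned lower in wdr12 GFP-negative cells. Of 56 members, 1 rose and 3 fell in wdr12 GFP-negative cells, with a median log2 fold change of -0.77. These calls are 1.79% and 5.36% of the list, against 9.27% and 6.18% of genes with a symbol, so falls were not in excess. At an unadjusted p under 0.05, 1 was higher and 20 lower. DESeq2 called 1 higher and 9 lower. The spindle checkpoint gene bub3 fell to 9.14 and 17.3 CPM in wdr12 GFP-negative cells, against 54.0, 52.4 and 49.9 CPM in ebf3 GFP-positive cells (-1.97 ± 0.43, edgeR adjusted p = 0.0147). The kinesin gene kif2c gave 13.1 and 12.9 CPM in wdr12 GFP-negative cells and 45.9, 44.0 and 35.3 CPM in ebf3 GFP-positive cells (-1.69 ± 0.41, edgeR adjusted p = 0.0253). In contrast, foxm1, a transcription factor of the G2 phase, rose to 14.1 and 9.27 CPM in wdr12 GFP-negative cells, against 3.31, 0.401 and 3.0 CPM in ebf3 GFP-positive cells (2.39 ± 0.65, edgeR adjusted p = 0.0439). The proliferation marker mki67 was low in both, at 2.39 and 2.58 CPM in wdr12 GFP-negative cells and 2.07, 1.6 and 2.5 CPM in ebf3 GFP-positive cells, beside 42.9 to 60.6 CPM in wdr12 GFP-positive cells. The list took 0.0934% and 0.0813% of counts in wdr12 GFP-negative libraries, below the 0.137%, 0.134% and 0.134% of the ebf3 GFP-positive libraries. Without either wdr12 GFP-negative library no member passed in either direction, and foxm1 lost its call when any one of the 5 libraries was left out. The members that fell numbered 1 without ebf3 GFP-positive library 1, 2 without library 2 and 5 without library 3.

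Of 71 synaptic vesicle and release genes 4 rose and 1 fell by edgeR, and the 4 make, load or take up GABA, a grouping made with their values in view. The 4 are 5.63% of the list, against 9.27% of genes with a symbol that rose. By unadjusted p under 0.05, 12 members were higher and 1 lower, and DESeq2 called 6 higher and 1 lower. The GABA-synthesising enzyme gene gad1b gave 304 and 352 CPM in wdr12 GFP-negative cells, against 48.0, 70.6 and 82.7 CPM in ebf3 GFP-positive cells (2.29 ± 0.46, edgeR adjusted p = 0.0095). Its relative gad2 gave 51.6 and 53.8 CPM in wdr12 GFP-negative cells and 10.3, 15.1 and 10.7 CPM in ebf3 GFP-positive cells (2.13 ± 0.41, edgeR adjusted p = 0.00758). The vesicular GABA transporter gene slc32a1 gave 130 and 123 CPM in wdr12 GFP-negative cells and 38.0, 42.9 and 47.8 CPM in ebf3 GFP-positive cells (1.56 ± 0.30, edgeR adjusted p = 0.0071). Both wdr12 GFP-negative libraries lay above every ebf3 GFP-positive library for these 3 genes. The membrane GABA transporter gene slc6a1b gave 1080 and 932 CPM in wdr12 GFP-negative cells, against 200, 247 and 274 CPM in ebf3 GFP-positive cells (2.06 ± 0.40, edgeR adjusted p = 0.00775). This last gene was also well measured in wdr12 GFP-positive cells, at a mean of 537 CPM, whereas gad1b, gad2 and slc32a1 averaged 8.98 to 42.3 CPM there. Second copies did not pass, with gad1a at 0.66 ± 0.32 and slc6a1a at 0.62 ± 0.41.

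No glutamate or acetylcholine marker passed the test, and their copies pointed both ways. The vesicular glutamate transporter gene slc17a6b gave 193 and 302 CPM in wdr12 GFP-negative cells, against 277, 389 and 293 CPM in ebf3 GFP-positive cells (-0.37 ± 0.35, edgeR adjusted p = 0.669). Its copy slc17a6a gave 144 and 148 CPM in wdr12 GFP-negative cells and 204, 248 and 177 CPM in ebf3 GFP-positive cells (-0.52 ± 0.36, edgeR adjusted p = 0.502). The choline acetyltransferase gene CHAT (2 of 2) gave 59.6 and 72.3 CPM in wdr12 GFP-negative cells, against 114, 111 and 83.7 CPM in ebf3 GFP-positive cells (-0.64 ± 0.42), and SLC18A3, its vesicular transporter partner, had -0.67 ± 0.47. Both lay below all ebf3 GFP-positive libraries without passing the test. The choline transporter gene SLC5A7 (1 of 2) had 0.13 ± 0.55, with overlapping groups. Among vesicular glutamate transporter genes of low level, slc17a7 gave 4.57 and 3.61 CPM in wdr12 GFP-negative cells, against 0.0, 1.47 and 1.5 CPM in ebf3 GFP-positive cells, and slc17a8 gave 10.2 and 5.32 CPM against 1.38, 2.41 and 0.166 CPM. These transporter genes were thus higher in both wdr12 GFP-negative libraries, and did not pass either (edgeR adjusted p = 0.579 for slc17a7 and 0.316 for slc17a8). No synaptic vesicle gene passed when either wdr12 GFP-negative library was left out, 1 rose without ebf3 GFP-positive library 1, and 4 rose without either of the others.

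The rest of the synaptic apparatus mostly did not pass. The only vesicle gene that fell was the synaptotagmin gene syt9b, at 30.5 and 22.7 CPM in wdr12 GFP-negative cells against 89.6, 82.4 and 62.1 CPM in ebf3 GFP-positive cells (-1.56 ± 0.38, edgeR adjusted p = 0.0276). Of 60 synapse organisers and postsynaptic scaffolds none rose by edgeR and 2 fell, the adhesion genes CNTN3 (2 of 2) and igsf9b, at -1.50 ± 0.31 and -1.52 ± 0.41. At an unadjusted p under 0.05, 8 were higher and 3 lower, and DESeq2 called 1 higher and 2 lower. The median log2 fold changes were 0.48 for vesicle genes and 0.31 for organisers, against 0.19 for genes with a symbol. The presynaptic scaffold gene BSN (2 of 2), at 651 and 779 CPM in wdr12 GFP-negative cells and 547, 540 and 460 CPM in ebf3 GFP-positive cells, had 0.47 ± 0.52, and the adhesion gene nrxn1a had 0.09 ± 0.39. When only the 5 compared libraries entered the fit, 15 vesicle genes and 9 organisers rose. Leaving aside wdr12 GFP-negative library 1 or 2, or ebf3 GFP-positive library 1, no organiser passed, and 1 fell without ebf3 GFP-positive library 2. The call of syt9b was lost without each library except ebf3 GFP-positive library 3.

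Ion channels and receptors leaned higher in wdr12 GFP-negative cells, but few passed by edgeR. The median log2 fold change was 0.66 for channel genes and 0.71 for receptor genes, against 0.19 for genes with a symbol. It lay above 0 for 42 channel and 54 receptor genes and below 0 for 4 and 13. The genes that rose were 6.52% of the channel list and 5.97% of the receptor list, against 9.27% of genes with a symbol. Of 46 ion channel genes 3 rose and none fell by edgeR. At an unadjusted p under 0.05, 8 were higher and 2 lower, and DESeq2 called 5 higher and 1 lower. The calcium channel gene CACNA1E (2 of 2) gave 116 and 135 CPM in wdr12 GFP-negative cells, against 32.1, 36.8 and 38.8 CPM in ebf3 GFP-positive cells (1.8 ± 0.39, edgeR adjusted p = 0.0147). The potassium channel genes kcnd2 and kcnn1a rose by 2.19 ± 0.56 and 1.23 ± 0.34. Of 67 neurotransmitter receptor genes 4 rose, among them the nicotinic subunit gene chrna2b, at 135 and 124 CPM in wdr12 GFP-negative cells against 33.6, 22.1 and 21.6 CPM in ebf3 GFP-positive cells (2.33 ± 0.48, edgeR adjusted p = 0.0106). A second nicotinic subunit, chrna6 (1 of 2), gave 52.2 and 39.0 CPM in wdr12 GFP-negative cells and 3.72, 12.8 and 6.49 CPM in ebf3 GFP-positive cells (2.56 ± 0.62, edgeR adjusted p = 0.0265). The only receptor gene that fell was CNR1 (2 of 2), given above, at 8.05 and 5.84 CPM in wdr12 GFP-negative cells against 73.3, 38.5 and 32.6 CPM in ebf3 GFP-positive cells. With the 5 compared libraries alone, 11 channel and 19 receptor genes rose. When the fit lacked wdr12 GFP-negative library 1 or 2 no channel or receptor gene rose. Leaving aside ebf3 GFP-positive library 1, no channel gene and 1 receptor gene rose, and 1 of each rose without library 2.

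Single peptide genes moved in both directions. Of 26 neuropeptide and hormone genes 3 rose (11.5%) and 2 fell (7.69%), near the 9.27% and 6.18% of genes with a symbol. Their median log2 fold change was 0.81, with 19 genes above 0 and 7 below. Summed, the list took 0.158% and 0.161% of counts in wdr12 GFP-negative libraries, below the 0.209%, 0.218% and 0.168% of the ebf3 GFP-positive libraries. These shares were not corrected for erythrocyte genes, which took 4.51% and 16.3% of counts in the wdr12 GFP-negative libraries. The small gap to 0.168% can therefore not be read as a difference. The somatostatin gene sst3 gave 20.0 and 40.7 CPM in wdr12 GFP-negative cells, against 2.07, 3.21 and 2.66 CPM in ebf3 GFP-positive cells (3.51 ± 0.55, edgeR adjusted p = 0.00241). Both copies of crhbp, which encodes the binding protein of corticotropin-releasing hormone, rose. Copy crhbp (2 of 2) gave 124 and 150 CPM in wdr12 GFP-negative cells against 18.6, 22.6 and 33.5 CPM in ebf3 GFP-positive cells (2.46 ± 0.47, edgeR adjusted p = 0.00705). Copy crhbp (1 of 2) gave 108 and 137 CPM against an uneven 2.34, 28.0 and 24.0 CPM (2.76 ± 0.76, edgeR adjusted p = 0.0481). The call of crhbp (1 of 2) was lost under DESeq2 and without any 1 of the ebf3 GFP-positive libraries. The PACAP precursor gene adcyap1b fell to 280 and 378 CPM in wdr12 GFP-negative cells, against 1150, 1180 and 760 CPM in ebf3 GFP-positive cells (-1.64 ± 0.39, edgeR adjusted p = 0.0243). The neurexin ligand gene NXPH3 fell by 1.65 ± 0.45. The cholecystokinin gene CCK (1 of 2), at 79.2 and 113 CPM in wdr12 GFP-negative cells and 252, 335 and 175 CPM in ebf3 GFP-positive cells, did not pass (-1.40 ± 0.46, edgeR adjusted p = 0.0991). Of the peptide genes, 2 rose and none fell without wdr12 GFP-negative library 1, and none passed without library 2. Without ebf3 GFP-positive library 1 there was 1 that rose, without library 2 there were 2, and none fell in either case.

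**Figure D3:**
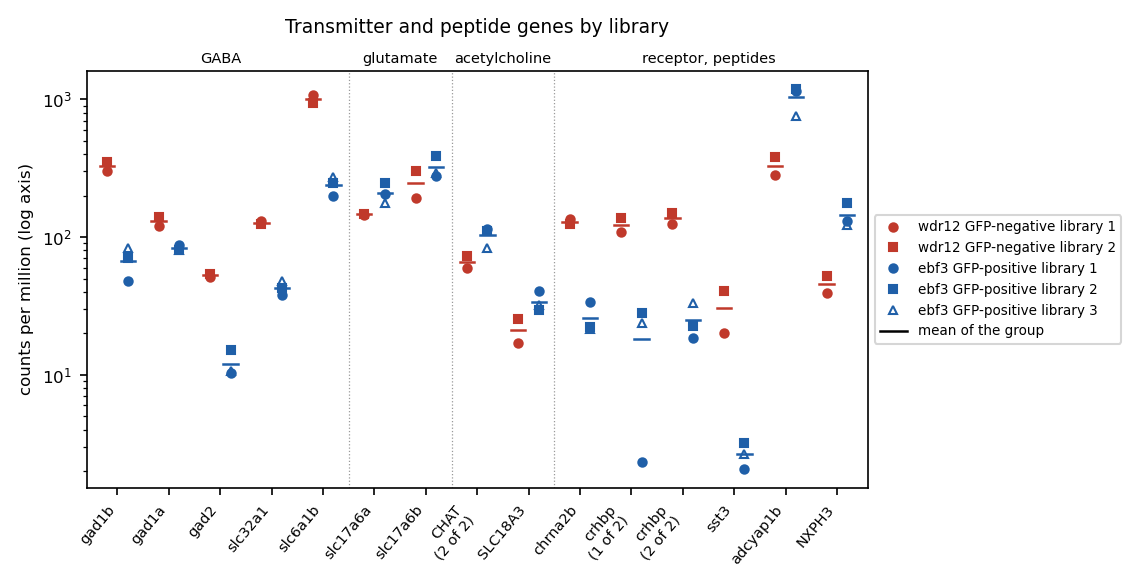
CPM (vertical axis, log scale) of 15 transmitter, receptor and peptide genes in each wdr12 GFP-negative library (red, left of each pair) and each ebf3 GFP-positive library (blue), with a bar at each group's mean. The GABA genes gad1b, gad2, slc32a1 and slc6a1b lie higher in wdr12 GFP-negative libraries, the plotted glutamate and acetylcholine genes at similar or lower levels.

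Axon guidance genes fell more often than they rose. Of 51 members 8 fell (15.7%) and 1 rose (1.96%), against 6.18% and 9.27% of genes with a symbol. The median log2 fold change was -0.28. The semaphorin gene sema4e gave 10.4 and 10.6 CPM in wdr12 GFP-negative cells, against 78.8, 59.4 and 38.6 CPM in ebf3 GFP-positive cells (-2.48 ± 0.40, edgeR adjusted p = 0.00299). The semaphorin receptor gene nrp1a gave 173 and 213 CPM in wdr12 GFP-negative cells and 624, 565 and 540 CPM in ebf3 GFP-positive cells (-1.57 ± 0.34, edgeR adjusted p = 0.0145). Also lower were sema6a, plxnb1a, the ephrin genes efna3b and efna5b, EPHB3 (1 of 2) and nfasca, between -1.11 and -1.58. The single member that rose was sema4ga, at 39.6 and 32.6 CPM in wdr12 GFP-negative cells against 0.413, 5.75 and 8.49 CPM in ebf3 GFP-positive cells (2.90 ± 0.61, edgeR adjusted p = 0.0118). No member passed without wdr12 GFP-negative library 1 or without library 2, and 2 and 3 members fell without ebf3 GFP-positive library 1 or 2.

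Signalling genes of the Wnt, Hedgehog, Fgf and Bmp pathways were split, with 4 of 51 higher and 6 lower. These are 7.84% and 11.8% of the list, against 9.27% and 6.18% of genes with a symbol. The Fgf receptor gene fgfr2 rose to 256 and 240 CPM in wdr12 GFP-negative cells, against 86.0, 75.8 and 135 CPM in ebf3 GFP-positive cells (1.33 ± 0.32, edgeR adjusted p = 0.0243), and the Fgf feedback inhibitor gene spry2 rose by 1.86 ± 0.42. The Wnt effector gene TCF7L1 fell to 28.5 and 44.0 CPM in wdr12 GFP-negative cells, against 197, 161 and 154 CPM in ebf3 GFP-positive cells (-2.23 ± 0.33, edgeR adjusted p = 0.00192). Its relative lef1, the ligand gene wnt1, the Hedgehog effector gene gli2b and the activin antagonist gene fsta fell with it. With either wdr12 GFP-negative library left out 1 member fell and none rose, and with ebf3 GFP-positive library 1 or library 2 left out 3 fell and none rose. The list's median, -0.04, changed sign with the libraries used.

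Radial glia genes rose. Of 27 members 13 rose (48.1%), 1 fell (3.7%) and 13 did not pass, with a median log2 fold change of 1.94. Among genes with a symbol 9.27% rose and 6.18% fell. Glutamine synthetase, GLUL (2 of 2), which clears glutamate in astroglia, gave 4410 and 4200 CPM in wdr12 GFP-negative cells, against 567, 559 and 1200 CPM in ebf3 GFP-positive cells (2.47 ± 0.44, edgeR adjusted p = 0.00507). The gap junction gene cx43 gave 93.1 and 86.6 CPM in wdr12 GFP-negative cells and 5.93, 9.09 and 20.1 CPM in ebf3 GFP-positive cells (2.95 ± 0.48, edgeR adjusted p = 0.00299). The folate enzyme gene aldh1l1, an astroglial marker in mammals, gave 28.5 and 24.7 CPM in wdr12 GFP-negative cells and 4.96, 3.08 and 4.33 CPM in ebf3 GFP-positive cells (2.69 ± 0.41, edgeR adjusted p = 0.00203). For all 3 genes the groups were well apart, and for GLUL (2 of 2) and cx43 library 3 was the highest of the ebf3 GFP-positive group. The brain lipid-binding protein gene fabp7a gave 417 and 710 CPM in wdr12 GFP-negative cells, against 92.2, 93.2 and 84.1 CPM in ebf3 GFP-positive cells (2.65 ± 0.47, edgeR adjusted p = 0.00463), while its copy FABP7 did not pass (0.39 ± 0.37). The glutamate transporter gene slc1a2b rose by 1.8 ± 0.44, and the filament gene gfap, at 13.7 and 26.3 CPM in wdr12 GFP-negative cells and 2.2, 2.67 and 7.82 CPM in ebf3 GFP-positive cells, did not pass (2.25 ± 0.76, edgeR adjusted p = 0.106). The tetraspanin gene cd81 was the member that fell. These genes were not limited to the wdr12 GFP-negative gate: the list took 1.69% and 1.32% of counts there, 0.534%, 0.478% and 0.631% in ebf3 GFP-positive libraries and 1.33% to 2.11% in wdr12 GFP-positive libraries. Fewer members rose when a library was left out, 7 without wdr12 GFP-negative library 1, 6 without library 2, 7 without ebf3 GFP-positive library 1 and 8 without library 2, but 18 rose without ebf3 GFP-positive library 3.

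Oligodendrocyte genes rose further. Of 13 members 10 rose (76.9%) and 1 fell (7.69%), against 9.27% and 6.18% of genes with a symbol. The median log2 fold change was 2.81. The myelin proteolipid gene plp1b gave 3420 and 1750 CPM in wdr12 GFP-negative cells, against 37.8, 23.8 and 346 CPM in ebf3 GFP-positive cells (4.25 ± 0.85, edgeR adjusted p = 0.00918). The myelin-associated glycoprotein gene mag gave 48.5 and 33.5 CPM in wdr12 GFP-negative cells and 1.52, 3.21 and 8.16 CPM in ebf3 GFP-positive cells (3.27 ± 0.53, edgeR adjusted p = 0.00299). The myelin regulatory factor gene myrf gave 33.1 and 21.1 CPM in wdr12 GFP-negative cells, against 1.79, 3.88 and 4.99 CPM in ebf3 GFP-positive cells (2.93 ± 0.48, edgeR adjusted p = 0.00299). Library 3 of the ebf3 GFP-positive group was the highest of its group for each of these genes, and its summed share of the list was 2.33 times the mean of the other two. The neuregulin receptor gene erbb3b (3.36 ± 0.56) and the lineage factor gene olig2 (2.60 ± 0.63) rose as well. The gene listed as cnp, a symbol used both for a myelin enzyme and for a natriuretic peptide, fell. It stood at 23.7 and 28.5 CPM in wdr12 GFP-negative cells against 111, 87.9 and 116 CPM in ebf3 GFP-positive cells (-2.01 ± 0.33, edgeR adjusted p = 0.00306). The list took 0.771% and 0.425% of counts in wdr12 GFP-negative libraries, against 0.06%, 0.054% and 0.133% in ebf3 GFP-positive libraries. In wdr12 GFP-positive libraries it took 0.0913% to 0.151%, with mag and myrf at means of 31.7 and 19.4 CPM. Without ebf3 GFP-positive library 1 or library 2 there were 5 members that rose, and without library 3 there were 10. The list median was 2.78 without wdr12 GFP-negative library 1 and 2.84 without library 2.

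Microglia and leukocyte genes rose. Of 20 members 13 rose (65%, against 9.27% of genes with a symbol) and none fell by edgeR. At an unadjusted p under 0.05, 16 were higher and 1 lower, and DESeq2 called 15 higher and 0 lower. The invariant chain gene cd74b, which serves antigen presentation, gave 275 and 267 CPM in wdr12 GFP-negative cells, against 20.3, 27 and 46.6 CPM in ebf3 GFP-positive cells (3.12 ± 0.35, edgeR adjusted p = 0.000348). Its copy cd74a rose by 3.27 ± 0.43. The purinergic receptor gene p2ry12, a marker of resting microglia in mammals, gave 116 and 130 CPM in wdr12 GFP-negative cells and 17.1, 18.5 and 35.0 CPM in ebf3 GFP-positive cells (2.39 ± 0.35, edgeR adjusted p = 0.0018). The groups were apart for each of these genes, and the wdr12 GFP-positive means, 205 CPM for cd74b and 97.0 CPM for p2ry12, were also above the ebf3 GFP-positive libraries. The leukocyte genes lcp1, coro1a, ptprc and irf8 rose by 2.56, 2.34, 1.75 and 2.62. The members that rose numbered 7 without wdr12 GFP-negative library 1, 3 without library 2, 8 without ebf3 GFP-positive library 1, 9 without library 2 and 14 without library 3.

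Vessel and connective tissue genes rose in part. Of 19 endothelial and mural genes 7 rose (36.8%, against 9.27% of genes with a symbol) and none fell by edgeR. There were 10 higher and 0 lower at an unadjusted p under 0.05, and 8 higher and 0 lower by DESeq2. The endothelial gene egfl7 gave 19.8 and 30.2 CPM in wdr12 GFP-negative cells, against 3.58, 6.29 and 5.33 CPM in ebf3 GFP-positive cells (2.30 ± 0.49, edgeR adjusted p = 0.0121). The smooth muscle gene tagln gave 48.5 and 78.1 CPM in wdr12 GFP-negative cells and 9.78, 8.69 and 18.6 CPM in ebf3 GFP-positive cells (2.36 ± 0.49, edgeR adjusted p = 0.0115). Both other endothelial markers measured were lower and did not pass. The tight junction gene cldn5a gave 6.09 and 10.6 CPM in wdr12 GFP-negative cells, against 14.3, 8.29 and 18.1 CPM in ebf3 GFP-positive cells (-0.68 ± 0.45, edgeR adjusted p = 0.477), with overlap. The endothelial cadherin gene cdh5 stood at 50.7 and 39.3 CPM in wdr12 GFP-negative cells and 78.3, 84.7 and 75.7 CPM in ebf3 GFP-positive cells, without overlap (-0.82 ± 0.46, edgeR adjusted p = 0.379). Of 30 meningeal and matrix genes 6 rose (20%, against the same 9.27%) and none fell by edgeR. There were 16 higher and 1 lower at an unadjusted p under 0.05, and 7 higher and 0 lower by DESeq2. The proteoglycan gene dcn gave 21.5 and 12.4 CPM in wdr12 GFP-negative cells, against 1.79, 0.535 and 0.999 CPM in ebf3 GFP-positive cells (3.91 ± 0.56, edgeR adjusted p = 0.00156). The collagen gene col1a2 gave 42.6 and 61.8 CPM in wdr12 GFP-negative cells and 4.69, 5.08 and 12.8 CPM in ebf3 GFP-positive cells (2.81 ± 0.56, edgeR adjusted p = 0.00946). The wdr12 GFP-positive means of dcn, col1a2 and tagln, 58.5, 141 and 79.0 CPM, lay above those of wdr12 GFP-negative cells. For egfl7 the wdr12 GFP-positive mean, 14.4 CPM, lay below. The wdr12 GFP-positive libraries gave 218, 142 and 86.8 CPM for cldn5a, above both compared sorts, and 3.79, 4.27 and 14.3 CPM for cdh5, below both. Of the vessel genes, 2 rose without wdr12 GFP-negative library 1, 1 without library 2, 2 without ebf3 GFP-positive library 1 or library 2 and 8 without library 3. Of the matrix genes, 3 rose without wdr12 GFP-negative library 1, 1 without library 2, 1 without ebf3 GFP-positive library 1, 2 without library 2 and 10 without library 3.

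Erythrocyte genes gave the largest rises of all. Of 29 members 19 rose (65.5%) and 1 fell (3.45%), against 9.27% and 6.18% of genes with a symbol. The median log2 fold change was 3.81. The list took 4.51% and 16.3% of counts in wdr12 GFP-negative libraries, against 0.138%, 0.118% and 0.19% in ebf3 GFP-positive libraries, and library 2 of the wdr12 GFP-negative group held 3.61 times the share of library 1. The heme synthesis gene ALAS2 gave 369 and 1890 CPM in wdr12 GFP-negative cells, against 4.27, 4.55 and 11.3 CPM in ebf3 GFP-positive cells (7.41 ± 0.70, edgeR adjusted p = 0.000148). The erythroid carbonic anhydrase gene cahz gave 382 and 1960 CPM in wdr12 GFP-negative cells and 5.65, 10.2 and 11.5 CPM in ebf3 GFP-positive cells (7.01 ± 0.70, edgeR adjusted p = 0.000148). The erythroid factor gene GATA-1 gave 73.5 and 177 CPM in wdr12 GFP-negative cells and 2.07, 0.535 and 4.33 CPM in ebf3 GFP-positive cells (5.79 ± 0.66, edgeR adjusted p = 0.000368). Library 2 was the higher of the wdr12 GFP-negative pair for each. The most abundant globin gene, listed as GB, gave 13900 and 74200 CPM in wdr12 GFP-negative cells, against 223, 191 and 562 CPM in ebf3 GFP-positive cells, and globin copies are near-identical, so reads may be split between them. The Rh gene rhd was the member that fell, at 11.5 and 9.45 CPM in wdr12 GFP-negative cells against 44.9, 31.0 and 29.1 CPM in ebf3 GFP-positive cells. Still 17 members rose without wdr12 GFP-negative library 1 and 12 without library 2, and rhd passed in neither case, nor without ebf3 GFP-positive library 1 or library 2.

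Transcripts of liver-secreted plasma proteins also rose. Of 9 members 5 rose (55.6%, against 9.27% of genes with a symbol) and none fell by edgeR. There were 6 higher and 0 lower at an unadjusted p under 0.05, and 6 higher and 0 lower by DESeq2. The apolipoprotein gene apoa2 gave 8840 and 8340 CPM in wdr12 GFP-negative cells, against 331, 348 and 1350 CPM in ebf3 GFP-positive cells (3.67 ± 0.61, edgeR adjusted p = 0.00308). The transferrin gene tfa gave 7630 and 6780 CPM in wdr12 GFP-negative cells and 214, 163 and 1210 CPM in ebf3 GFP-positive cells (3.77 ± 0.76, edgeR adjusted p = 0.00951). The wdr12 GFP-positive libraries lay higher still, averaging 35500 CPM for apoa2 and 26500 CPM for tfa. Library 3 of the ebf3 GFP-positive group held 5.21 times the share of this list that libraries 1 and 2 held on average, and 2.12 and 2.05 times for the microglia and the matrix lists. Its part in the other results was not tested beyond the counts without it. Without ebf3 GFP-positive library 1 there were 3 plasma protein genes that rose, without library 2 there were 4 and without library 3 there were 6. The list median was 2.28 without wdr12 GFP-negative library 1 and 1.89 without library 2.

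**Figure D4:**
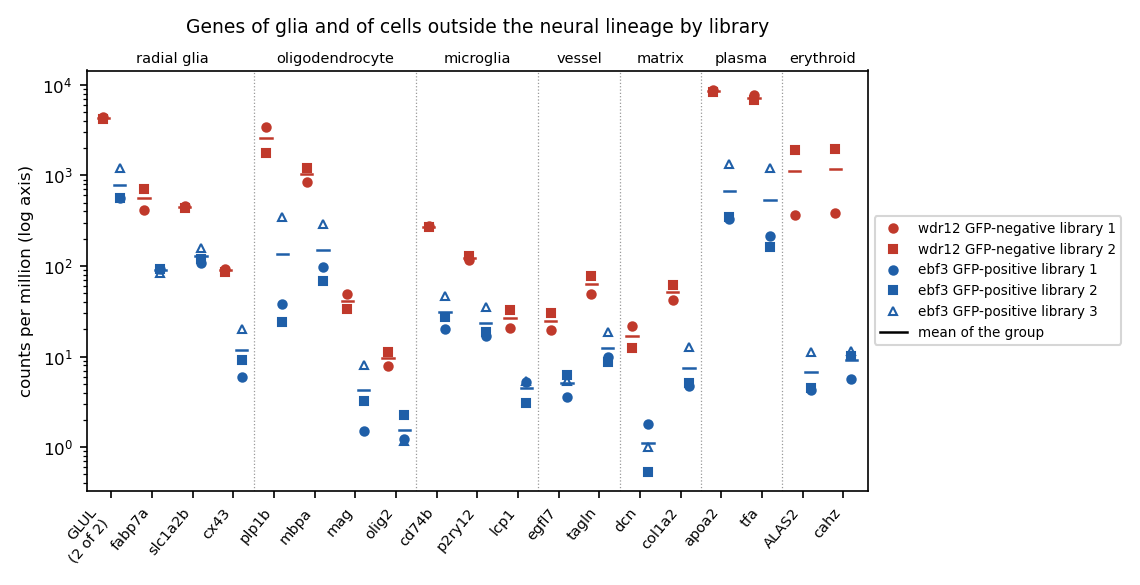
CPM (vertical axis, log scale) of 19 genes of glia, immune, vessel, matrix, plasma protein and erythroid groups in each wdr12 GFP-negative library (red, left of each pair) and each ebf3 GFP-positive library (blue), with a bar at each group's mean. The genes drawn were picked from those that rose, so all lie higher in the wdr12 GFP-negative libraries. Members of these groups that did not rise, such as cdh5, cldn5a and cnp, are not drawn. Among the genes drawn, ebf3 GFP-positive library 3 (open triangle) is often the highest of its group, as for apoa2 at 1350 CPM.

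The remaining large rises included genes of these same cells and some that belong to none of the lists. The carnosinase gene CNDP1 gave 153 and 604 CPM in wdr12 GFP-negative cells, against 6.34, 5.22 and 2.83 CPM in ebf3 GFP-positive cells (6.29 ± 1.09, edgeR adjusted p = 0.00421). The myristoyltransferase gene nmt1b gave 98.8 and 182 CPM in wdr12 GFP-negative cells and 0, 0.802 and 4.83 CPM in ebf3 GFP-positive cells (6.28 ± 0.90, edgeR adjusted p = 0.00155). The anion exchanger gene slc4a1a of red cells, at 60.3 and 276 CPM in wdr12 GFP-negative cells against 2.76, 4.68 and 6.82 CPM in ebf3 GFP-positive cells, and nt5c2l1, at 190 and 1130 CPM against 10.3, 17.7 and 15.5 CPM, shared the higher level in wdr12 GFP-negative library 2. In contrast, hm:zeh0619 was even between the wdr12 GFP-negative libraries, at 36.8 and 47.4 CPM, against 1.24, 0.401 and 0.166 CPM in ebf3 GFP-positive cells (6.05 ± 0.58, edgeR adjusted p = 0.000148). It averaged 34.4 CPM in wdr12 GFP-positive cells. Of the 494 genes that rose, 240 had their highest mean in the wdr12 GFP-positive group, and of the 307 that fell 84 did. The retinoid isomerase gene rpe65a was the only 1 of 5 photoreceptor, pigment and muscle genes that rose, at 63.1 and 36.4 CPM in wdr12 GFP-negative cells against 3.58, 9.23 and 5.66 CPM in ebf3 GFP-positive cells (3.01 ± 0.44, edgeR adjusted p = 0.00167).

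Immediate early and stress genes rose more often than they fell, with 9 of 38 higher and 3 lower. These are 23.7% and 7.89% of the list, against 9.27% and 6.18% of genes with a symbol. The median log2 fold change was 1.35, with 30 genes above 0 and 8 below. At an unadjusted p under 0.05, 23 were higher and 7 lower. The AP-1 gene fosb gave 60.5 and 99.8 CPM in wdr12 GFP-negative cells, against 1.65, 6.02 and 14.5 CPM in ebf3 GFP-positive cells (3.46 ± 0.61, edgeR adjusted p = 0.00479). The orphan nuclear receptor gene nr4a3 gave 11.5 and 22.5 CPM in wdr12 GFP-negative cells and 1.65, 0.936 and 0.999 CPM in ebf3 GFP-positive cells (3.81 ± 0.64, edgeR adjusted p = 0.00326). The wdr12 GFP-positive mean was 168 CPM for fosb, above both wdr12 GFP-negative libraries, and 13.7 CPM for nr4a3, between them. The members that fell were ier5l, gadd45g and DDIT4 (1 of 2), the first at 76.6 and 97.7 CPM in wdr12 GFP-negative cells against 371, 365 and 257 CPM in ebf3 GFP-positive cells (-1.92 ± 0.33, edgeR adjusted p = 0.00384). Summed, the list overlapped between the groups, at 0.28% and 0.345% of counts in wdr12 GFP-negative libraries and 0.301%, 0.263% and 0.295% in ebf3 GFP-positive libraries. Without ebf3 GFP-positive library 1 there were 3 members that rose, without library 2 there were 6 and without library 3 there were 11. The list median was 1.41 without wdr12 GFP-negative library 1 and 1.14 without library 2. DESeq2 called 16 higher and 5 lower.

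Most genes of protein synthesis and RNA processing were lower, but few of them passed by edgeR. Of 51 cytosolic ribosomal protein genes, 50 did not pass, 1 fell and none rose by edgeR. At an unadjusted p under 0.05, 0 were higher and 43 lower, and DESeq2 called 0 higher and 28 lower. For 50 of the 51 genes both wdr12 GFP-negative libraries lay below every ebf3 GFP-positive library, against 29.1% of genes with a symbol. Their median log2 fold change was -0.89, and together they took 7.44% and 8.66% of counts in wdr12 GFP-negative libraries, against 12.2%, 15.8% and 14.1% in ebf3 GFP-positive libraries. The gene that passed, rps4x, gave 1410 and 2550 CPM in wdr12 GFP-negative cells and 4290, 5270 and 5310 CPM in ebf3 GFP-positive cells (-1.32 ± 0.35, edgeR adjusted p = 0.0375). Of 34 splicing genes 4 fell (11.8%, against 6.18% of genes with a symbol) and none rose by edgeR. There were 26 lower and 0 higher at an unadjusted p under 0.05, and DESeq2 called 20 lower and 0 higher. The median log2 fold change of the splicing list was -1.02. Both wdr12 GFP-negative libraries lay below every ebf3 GFP-positive library for 29 of the 34. The helicase gene ddx39aa (2 of 2) gave 337 and 380 CPM in wdr12 GFP-negative cells, against 1150, 1030 and 948 CPM in ebf3 GFP-positive cells (-1.54 ± 0.34, edgeR adjusted p = 0.0147). Of 41 ribosome biogenesis genes 3 fell, dcaf13, utp15 and imp4, between -1.24 and -1.44, with 15 lower and 0 higher at an unadjusted p under 0.05. The 3 are 7.32% of the list, near the 6.18% of genes with a symbol that fell. With only the 5 compared libraries in the fit, 15 ribosomal protein, 24 splicing and 6 biogenesis genes fell. With the omission of wdr12 GFP-negative library 1 or 2 no member of these 3 lists passed, and without ebf3 GFP-positive library 1 none passed either. With ebf3 GFP-positive library 2 left out 1 splicing gene fell, and with library 3 left out 6 splicing and 2 biogenesis genes fell, but in neither case a ribosomal protein gene. With the erythrocyte and plasma protein genes taken out before scaling, the medians of the ribosomal protein and splicing lists were -0.91 and -1.03, and 5 ribosomal protein and 5 splicing genes fell. Of 10 respiratory chain genes 1 rose and none fell, with a list median log2 fold change of 0.55. That is 10% of the list, near the 9.27% of genes with a symbol that rose. The gene that rose, the cytochrome oxidase subunit gene cox4i2, gave 72.0 and 68.5 CPM in wdr12 GFP-negative cells, against 26.7, 28.4 and 19.5 CPM in ebf3 GFP-positive cells (1.5 ± 0.4, edgeR adjusted p = 0.0434). Its call was lost without any 1 of the 5 compared libraries, with an edgeR adjusted p of up to 0.251.

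In several multi-subunit complexes, chosen after their values were seen, some subunits fell and none rose. Among genes with a symbol, 6.18% fell and 29.1% had both wdr12 GFP-negative libraries below all ebf3 GFP-positive libraries. Since the complexes were picked by their values, the counts below are no evidence of a joint fall. Of 8 subunits of the TRiC chaperonin, which folds actin and tubulin, 6 fell, and both wdr12 GFP-negative libraries were below every ebf3 GFP-positive library for all 8. Subunit cct8 gave 282 and 386 CPM in wdr12 GFP-negative cells, against 1010, 935 and 903 CPM in ebf3 GFP-positive cells (-1.51 ± 0.32, edgeR adjusted p = 0.013). Of 12 genes either of the NuRD repressor complex or of histone deacetylases in general 7 fell and 5 did not pass. The 2 with a log2 fold change above 0 were hdac9b (0.35) and hdac5, deacetylase genes outside that complex. HDAC2 gave 124 and 140 CPM in wdr12 GFP-negative cells, against 485, 363 and 438 CPM in ebf3 GFP-positive cells (-1.70 ± 0.32, edgeR adjusted p = 0.00649), and hdac1 (1 of 2) gave 63.3 and 70.4 CPM in wdr12 GFP-negative cells against 300.0, 267 and 363 CPM in ebf3 GFP-positive cells (-2.21 ± 0.33, edgeR adjusted p = 0.00181). The neuronal deacetylase gene hdac5 had 0.79 ± 0.45 and did not pass. Of 16 genes grouped by symbol with the BAF and PBAF remodelling complexes 10 did not pass, 4 of them above 0 with bcl7ba at 1.17. One of these 4, smarcal1 (0.15), is not a subunit of these complexes. The 6 that fell included smarcb1b (-2.01 ± 0.42) and actl6a (-1.45 ± 0.34), a subunit of the progenitor form in mammals. Of 6 subunits each of the translation factor eIF3 and of Mediator, 3 fell in each. One tubulin gene of 9 fell, tubb5 (2 of 2), at 954 and 1500 CPM in wdr12 GFP-negative cells against 7210, 5370 and 6560 CPM in ebf3 GFP-positive cells (-2.38 ± 0.36, edgeR adjusted p = 0.00192).

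**Figure D5:**
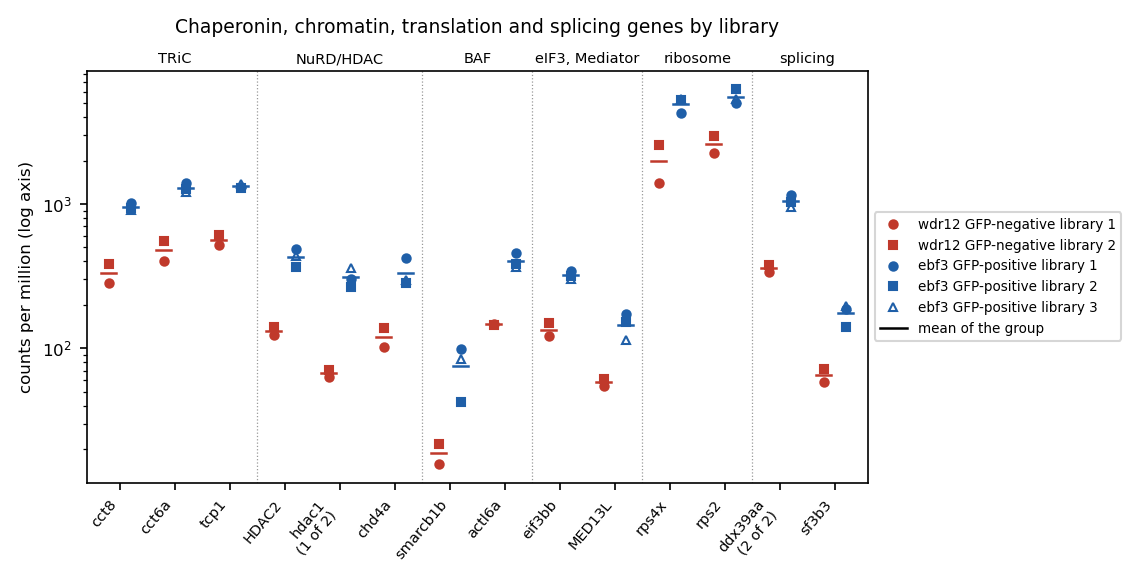
CPM (vertical axis, log scale) of 14 chaperonin, chromatin, translation and splicing genes in each wdr12 GFP-negative library (red, left of each pair) and each ebf3 GFP-positive library (blue), with a bar at each group's mean. The genes were picked with their values in view. Both wdr12 GFP-negative libraries lie below the ebf3 GFP-positive libraries for every gene drawn, for example HDAC2 at 124 and 140 CPM against 363 to 485 CPM.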

How the data were processed

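The values deposited by the authors are raw counts per Ensembl gene, in tables that hold pairs of sorts. Per the submitters' processing notes, CASAVA 1.8.2, FastQC 0.10.1, TopHat2 and DESeq were used; the sources used here give no build, annotation or counter. The authors' fold changes and p-values were not used. Values repeated between tables were identical, and 16957 genes with counts in all 8 libraries were kept. Symbols came from the authors' deposited sheets of changed genes and exist for 4662 genes.

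The counts were fitted with edgeR 4.0.16 (R 4.3.3) over all 8 libraries, with TMM scaling, its filter on low counts and the quasi-likelihood test, adjusted by Benjamini-Hochberg over 15640 genes; an adjusted p under 0.05 was a call. CPM are TMM-scaled, shares of counts are unscaled, and SE is the log2 fold change over the root of F. DESeq2 1.42.0 and the other alternatives are given in the closing section.

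Named genes were wdr12, ebf3, the 15 largest called changes in each direction whose mean normalised count reached 100 and, per list, up to 3 called members in each direction by adjusted p and 2 others by level; any other gene was picked with its values in view. The lists and members were chosen with earlier results of these data known. Intervals and p-values rest on a spread estimated over all 8 libraries, the wdr12 GFP-positive libraries included. They do not measure the spread of the compared libraries alone. No sequence or coordinate is given, since no annotation used here covers these gene identifiers. The counting is not stated to use strand, so antisense partners and near-identical copies cannot be told apart.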

Additional observations from a re-analysis of the deposited data

How the results depend on the processing

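The main counts, 494 genes higher and 307 lower in wdr12 GFP-negative cells, stayed within 1.5 times under RLE scaling, without a filter on low counts and with erythrocyte and plasma protein genes removed. With only the 5 compared libraries in the fit, 852 genes rose and 753 fell, and DESeq2 called 794 and 706; the cause was not tested. DESeq2 shared 481 of the 494 and all 307 of these calls. Leaving out 1 library gave 133 to 631 genes higher and 25 to 314 lower, a lone wdr12 GFP-negative library being assumed to vary like the other groups. The share of calls that were higher was 61.7% in the main fit and 88.0% without wdr12 GFP-negative library 1.

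The labels number the replicates, but same-numbered wdr12 GFP-negative and ebf3 GFP-positive libraries had deviations from their group means that correlated at -0.144 and 0.0323, and same-numbered libraries of the wdr12 line at -0.185 and -0.223. With 2 wdr12 GFP-negative libraries these deviations mirror each other, so the check says little, and the labels do not say what a number marks. A fit with a replicate block called 819 genes higher and 373 lower, and its median over all genes was 0.144. Under the replicate block the medians of log2 fold change moved to -0.942 (mitosis), 2.65 (radial glia), 0.775 (synaptic vesicle), 0.445 (synapse organisers), 0.798 (channels), 1.13 (neuropeptides), -0.161 (axon guidance), -0.224 (neural progenitor and Notch), 3.73 (oligodendrocytes), 1.91 (matrix), 1.71 (photoreceptors, pigment cells and muscle) and 0.289 (Wnt, Hedgehog, Fgf and Bmp, main -0.0356). With only the 5 compared libraries the medians of synapse organisers and axon guidance were 0.354 and -0.224.

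Leaving out 1 library moved list medians over these ranges: -0.245 to 0.274 for Wnt, Hedgehog, Fgf and Bmp, -0.452 to -0.21 for axon guidance, -0.223 to -0.0309 for neural progenitor and Notch (main -0.136), -0.335 to -0.113 for DNA replication (main -0.291), -1.28 to -0.613 for ribosomal proteins, 1.28 to 2.01 for endothelium, 2.97 to 4.34 for erythrocytes, 1.14 to 1.6 for immediate early genes, 1.15 to 1.85 for matrix, 0.447 to 0.786 for the respiratory chain, -0.847 to -0.713 for mitosis, 0.752 to 1.09 for neuropeptides, 0.548 to 0.774 for receptors, 2.53 to 3.64 for oligodendrocytes, 1.71 to 3.19 for plasma proteins, 1.69 to 2.62 for radial glia, -0.607 to -0.415 for ribosome biogenesis, 0.144 to 0.322 for synapse organisers, 0.435 to 0.713 for synaptic vesicles and 0.612 to 0.779 for channels. Only the Wnt, Hedgehog, Fgf and Bmp median changed sign in these runs. Of the 99 called named genes 0 changed sign, and 34 kept the call under every setting. Depth limits genes of a few counts, and 2 libraries against 3 allow no exact permutation p under 0.1.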

Other observations

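Some further gene groups, chosen after their values were seen, differed between the sorts. Among genes with a symbol 9.27% rose and 6.18% fell. Since the groups were picked by their values, their counts are no evidence of a joint change. Of 5 genes of phenylalanine and tyrosine breakdown 4 rose in wdr12 GFP-negative cells. The phenylalanine hydroxylase gene pah gave 199 and 178 CPM in wdr12 GFP-negative cells, against 13.2, 10.3 and 23.8 CPM in ebf3 GFP-positive cells (a log2 change of 3.58 ± 0.49 (SE), edgeR adjusted p = 0.00107). The next enzyme genes of the route, tat, hpdb and hgd, rose by 3.57, 4.18 and 2.06. Their means in wdr12 GFP-positive cells were higher still, at 558 CPM for pah and 432 CPM for hpdb, and these genes thus shared the order of the plasma protein transcripts over the sorts.

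Of 7 complement genes 4 rose, with c7a at 77.5 and 80.2 CPM in wdr12 GFP-negative cells against 0.965, 3.08 and 7.16 CPM in ebf3 GFP-positive cells (4.42 ± 0.64, edgeR adjusted p = 0.00156). The microglial pair c1qb and c1qc was uneven between the wdr12 GFP-negative libraries, at 2.18 and 16.7 CPM for c1qb. Of 6 carbonic anhydrase genes 4 rose, among them ca8 (2.21 ± 0.41) and ca14 (2.04 ± 0.44) besides the erythroid cahz. Of 10 Iroquois, LIM-homeobox and LIM-only genes 6 fell, with irx5a at 68.1 and 77.5 CPM in wdr12 GFP-negative cells against 298, 306 and 297 CPM in ebf3 GFP-positive cells (-2.05 ± 0.31, edgeR adjusted p = 0.00192). The blood and endothelial LIM-only gene lmo2 rose instead, at 44.6 and 100.5 CPM in wdr12 GFP-negative cells against 14.2, 14 and 27.1 CPM in ebf3 GFP-positive cells (1.98 ± 0.48, edgeR adjusted p = 0.0269).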
